A study of Homo sapiens with 6 samples.

Results

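The genes examined here are 48 genes of DNA replication and S phase, taken from the deposited table by their symbols out of the 30267 genes it lists. They cover 10 roles, from the loading of the replicative helicase onto origins to the supply of deoxynucleotides. The cells were SW839, a human line of renal cell carcinoma, sequenced as 3 shRNF25 and 3 shControl RNA libraries. The shRNF25 cells carried an shRNA against RNF25, an E3 ubiquitin ligase, and the shControl cells carried the pLKO lentiviral vector. All library names of the knockdown group share the stem shRNF25B, which was read as 1 hairpin, although the names do not state this. The treatment text names the shRNF25 plasmid for the controls as well, and the groups therefore rest on the titles and genotype labels. The control library names differ in form from each other, and no label says whether they were made together. The design text calls the libraries biological triplicates and gives no culture or batch, so p-values measure the spread between these libraries.

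Before S phase, ORC, CDC6 and CDT1 load the MCM2-7 helicase onto origins, and cyclin E with CDK2 then drives the step in which CDC45 and the GINS complex join the helicase and start it. Primase and DNA polymerases copy the opened strands, the PCNA clamp and its RFC loader keep the polymerases on the template, and ribonucleotide reductase makes the deoxynucleotides. E2F transcription factors switch most of these genes on together as cells leave G1, and tumor cell lines that divide steadily express them at high levels.

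RNF25 itself had normalized counts of 694, 534 and 536 in the shControl libraries and of 214, 246 and 265 in the shRNF25 libraries. All shRNF25 values lay below all shControl values, with a log2 fold change of -1.27 (limma standard error, SE, 0.150 and adjusted p = 0.000585). The libraries held between 18647460 and 19943154 reads on genes. Mitochondrial transcripts took 12.1% of the reads in shControl replicate 1 and between 3.58% and 4.44% in the other 5 libraries. Reads on histone genes took 0.131%, 0.122% and 0.113% in shControl and 0.160%, 0.154% and 0.149% in shRNF25, higher without overlap. The epithelial markers KRT8 (22206 to 31848 in shControl and 35088 to 38009 in shRNF25) and KRT18 were abundant. PAX8 lay between 118 and 140.3 in shControl and between 76.7 and 109.6 in shRNF25. KRT8 and PAX8 did not overlap between the groups and were not called, and VIM rose from between 203 and 448 to between 804 and 882 (log2 fold change 1.31, limma adjusted p = 0.00805). By contrast, CA9, a usual marker of clear cell carcinoma, lay between 1.85 and 50.7. Of 11 markers of other cell types in the table, 5 were tested, and CD3E, COL1A2 and DCN had 3 reads or fewer in every library. Summed fibroblast markers lay between 1107 and 1291 in shControl and between 865 and 1012 in shRNF25, endothelial markers between 459.7 and 678 and between 413 and 557, and leukocyte markers between 13.0 and 21.5 and between 10.5 and 21.0. COL1A1 carried most of the fibroblast sum and PECAM1 most of the endothelial sum, and CDH5 fell from between 73.0 and 199 to between 3.64 and 8.31 (limma adjusted p = 0.000213). Their part in the results on replication genes was not tested.

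All 48 replication genes passed the filter on low values, 10 normalized counts in 3 or more libraries, and their lowest value in any library was 112, for POLA2. After RNF25 knockdown, 10 of the 48 genes fell and 0 rose at an adjusted p-value below 0.05 (limma, Benjamini-Hochberg over the 16554 genes tested). The 10 genes were CDC6 and CDT1 of origin licensing, CDC45, GINS3 and GINS4 of helicase activation, POLE2 and PRIM1 of the polymerases, RFC5 of the clamp loader, RRM2 of nucleotide supply, and CCNE1, which encodes cyclin E1. They make up 20.8% of the replication genes, beside 10.8% of all tested genes that were lower and 10.5% that were higher. With the further requirement of a fold change of at least 1.5, 6 replication genes were lower, or 12.5%, and 0 were higher, beside 7.1% and 8.65% of all tested genes. At an unadjusted p below 0.05 from limma, 18 were lower (37.5%) and 0 higher, beside 18% and 17.3% of all tested genes. At an adjusted p below 0.05, edgeR and DESeq2 also called 0 higher. All 48 genes also passed a filter of 50 normalized counts in 3 or more libraries. Under that filter 1605 of 12755 genes were lower and 1215 higher, and 10 replication genes were lower and 0 higher.

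The falls were modest in size. Among the 10 genes the log2 fold change on the log2(normalized count + 1) scale lay between -0.79 and -0.41. RRM2 was left at 57.9% of its control mean, CCNE1 at 57.8% and CDC6 at 75.6%. The median over all 48 genes was -0.20, beside -0.01 over all tested genes. Over the genes that reached 50 in 3 or more libraries it was -0.05. Of the 48 values 45 were below 0, or 93.8%, beside 51.2% of all tested genes. The groups were fully separated, with the knockdown libraries lower, in 18 of the 48 genes, or 37.5%, beside 21.8% of all tested genes, and with them higher in 0, beside 20.7%. In bulk RNA, fewer cells in S phase and less of a transcript per cell cannot be told apart.

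**Figure D1:**
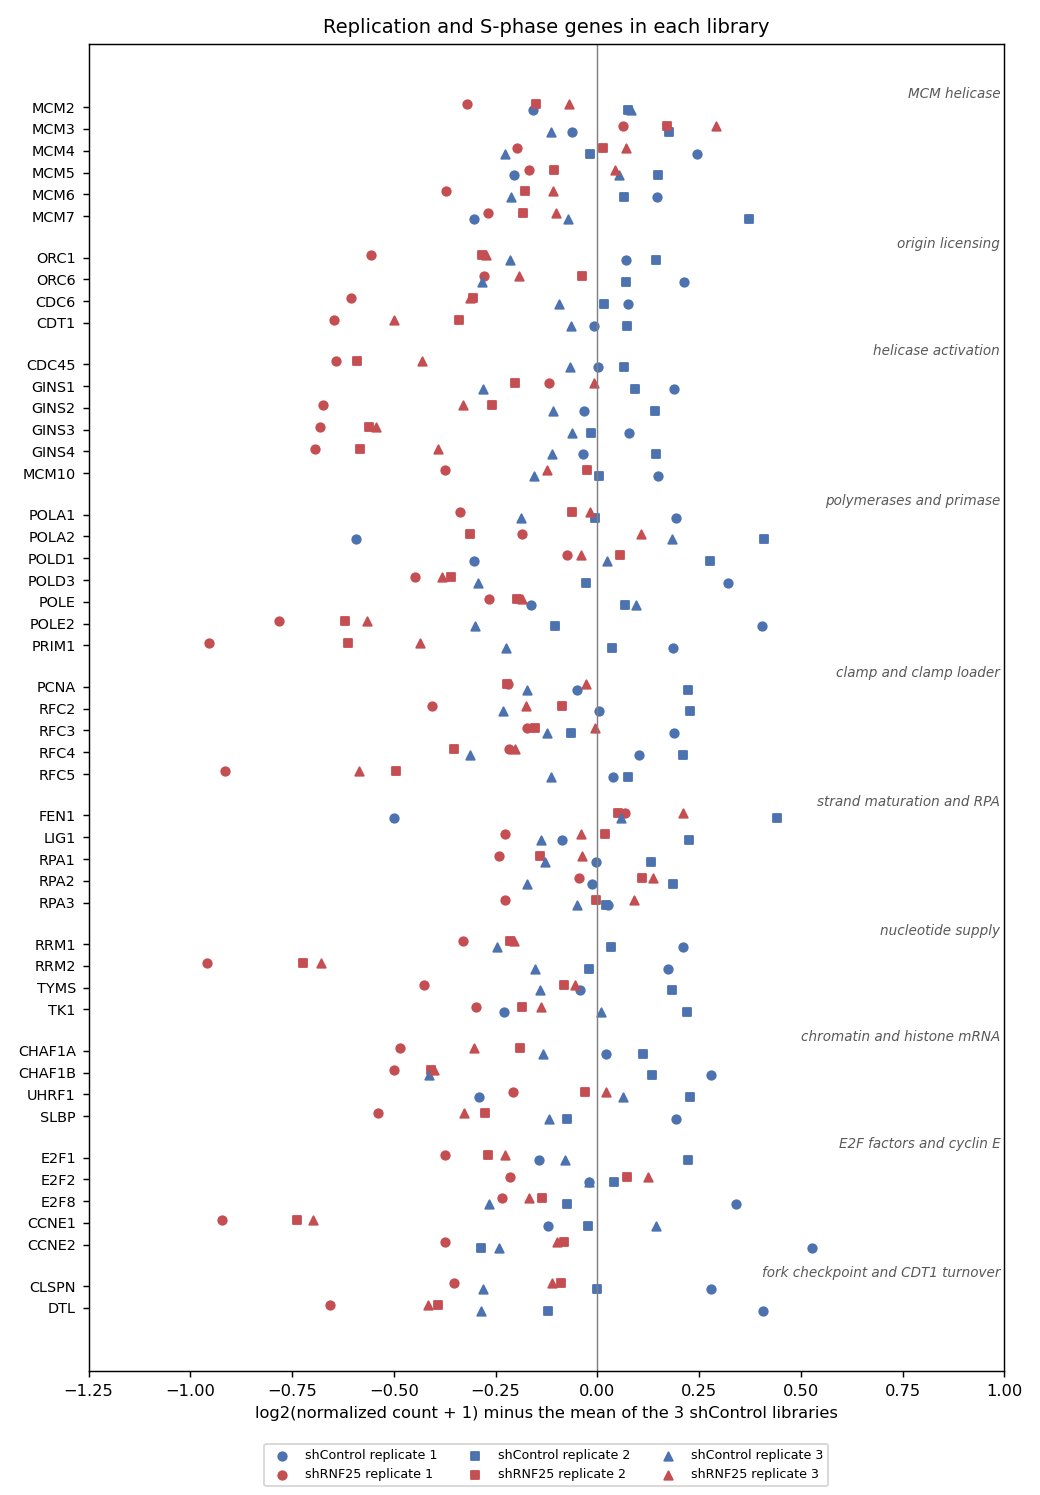
Each row is a gene, grouped by role, and each point is a library, placed by its log2(normalized count + 1) minus the mean of the 3 shControl libraries (blue, shControl; red, shRNF25; marker shape, replicate number). The red points of CDC45, GINS3, RFC5, RRM2 and CCNE1 stand apart to the left of the blue points, while red and blue points mix for the MCM2-7, RPA and FEN1 rows.

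The number of calls moved with the libraries compared, for these genes as for all genes. It was 17 without shControl replicate 1, 6 without shControl replicate 2, 17 without shControl replicate 3, 3 without shRNF25 replicate 1, 5 without shRNF25 replicate 2 and 7 without shRNF25 replicate 3. Over all tested genes the lower calls went from 1785 to 2986, 1437, 1985, 866, 874 and 860 in the same order. The log2 fold changes of the 10 genes stayed between -0.86 and -0.31 in these 6 fits, so what was lost was the threshold and not the direction. RRM2, CCNE1 and RFC5 were called in each of them and under each of the other 10 settings.

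RRM2 and CCNE1 had the largest falls. RRM2, on chromosome 2 of GRCh38 from 10120698 to 10131419 (GENCODE 29), encodes the small subunit of ribonucleotide reductase that is made in S phase. Its normalized counts were 8899, 7776 and 7101 in shControl and 4060.2, 4777 and 4926 in shRNF25. The highest knockdown library was below the lowest control library by a wide margin, and the log2 fold change was -0.79 (limma SE 0.125 and adjusted p = 0.00267). A share of 29.6% of 50-base words in its transcript also occurs in other genes, chiefly AC007240.1, which overlaps it on the same strand, and the pseudogene RRM2P3. AC007240.1 and RRM2P3 were listed at 6.63 or less in every library, so few reads were assigned to them. These low values do not show how reads that match both RRM2 and another gene were counted.
The other genes of nucleotide supply gave smaller differences. RRM1, the large subunit, had a log2 fold change of -0.25 (95% interval -0.54 to 0.04), TYMS, which makes thymidylate, -0.19 (interval -0.50 to 0.12) and TK1, which salvages thymidine, -0.21 (interval -0.50 to 0.08), none past the threshold. TK1 lay at 3483, 4758 and 4107 in shControl and at 3322, 3593 and 3709 in shRNF25, so its groups overlapped. TYMS shares 39.2% of its exon bases with ENOSF1 on the opposite strand, and the setting for strand in the counting is not given in the sources used here.

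Cyclin E1 fell while cyclin E2 did not pass the test. CCNE1, on chromosome 19 from 29811898 to 29824308, had normalized counts of 352, 377 and 423 in shControl and 201, 229 and 235 in shRNF25. The groups did not overlap, and the log2 fold change was -0.79 (limma SE 0.134 and adjusted p = 0.00373). CCNE2 had a log2 fold change of -0.18, with a wide 95% interval of -0.68 to 0.31. Its control value was 367 in shControl replicate 1 but 208 and 215 in the other control libraries, within the 196 to 240.1 of the knockdown libraries. CCNE2 shares 37.1% of its exon bases with INTS8 on the opposite strand. The difference between the cyclins' changes was not tested.
The E2F genes among the members were not called. E2F1, the activator that starts the S-phase program, lay at 1883, 2428 and 1969.7 in shControl and at 1604, 1726 and 1779 in shRNF25. The groups did not overlap, but the log2 fold change of -0.29 had an adjusted p of 0.124 from limma. E2F2, a related activator, had a value of -0.01 and E2F8, a repressor in the family, one of -0.18 (adjusted p = 0.983 and 0.449 from limma).

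**Figure D2:**
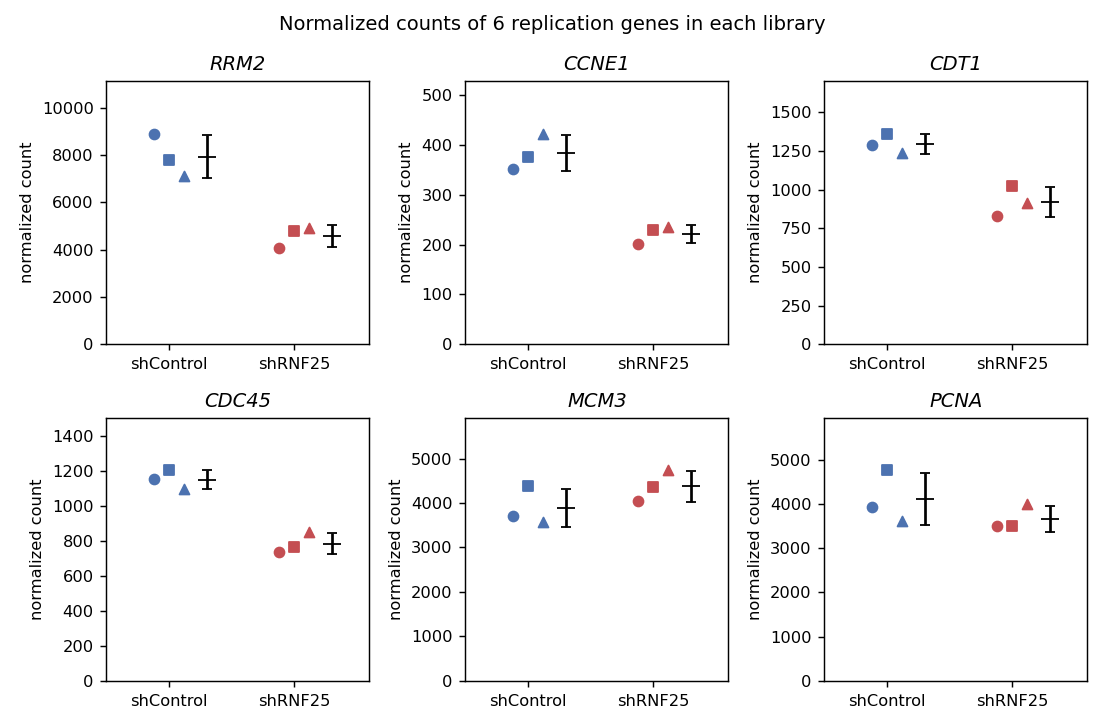
Normalized counts of 6 replication genes in the 3 shControl (blue) and 3 shRNF25 (red) libraries, with marker shape for the replicate number and the mean ± SD of each group in black on axes that start at 0. RRM2, CCNE1, CDT1 and CDC45 show a gap between the groups, and MCM3 and PCNA overlap.

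The helicase itself and the factors that activate it differed in their calls, and the difference between these role groups was not tested. Of the MCM2-7 genes, which encode the subunits of the helicase ring, 0 of 6 passed the test (lowest limma adjusted p = 0.251, for MCM6). Of all tested genes 10.8% were lower and 10.5% higher, so 0 of 6 does not by itself set these genes apart. MCM7 lay at 5064, 8089 and 5939 in shControl and at 5180.1, 5499 and 5818 in shRNF25, so that shControl replicate 2 was high and the other values intermixed. Its log2 fold change was -0.18, and the 95% interval from -0.55 to 0.18 reaches past the values of CDC6 and CDT1 but not past those of the other called genes. MCM3, with 3702, 4373 and 3575 against 4043, 4356 and 4734, had a log2 fold change of 0.18 (interval -0.09 to 0.44). For MCM3 the interval excludes a fall of the size seen for CDC45. The other MCM ring genes were MCM2 at -0.18, MCM4 at -0.04, MCM5 at -0.08 and MCM6 at -0.22.
Of the helicase activation genes, 3 of 6 fell (50%), beside 10.8% of all tested genes that were lower. CDC45, on chromosome 22 from 19479459 to 19520612, encodes the protein that joins MCM2-7 and GINS in the active helicase, and is shown in full because of its value. It lay at 1149.7, 1201 and 1097 in shControl and at 736, 762 and 852 in shRNF25, a log2 fold change of -0.55 (limma SE 0.109 and adjusted p = 0.00726). GINS3 went from 448, 419.6 and 406 to 264, 287 and 291 (log2 fold change -0.59, limma adjusted p = 0.00769). GINS4 went from 533, 603 and 505 to 337, 364 and 416 (log2 fold change -0.56, limma adjusted p = 0.0167). In each of these 3 genes the highest knockdown value lay below the lowest control value. With 1 library left out, the log2 fold change stayed between -0.62 and -0.51 for CDC45, between -0.63 and -0.55 for GINS3 and between -0.64 and -0.48 for GINS4. The adjusted p then rose above 0.05 in 2, 1 and 3 of the 6 fits, up to 0.0553, 0.0556 and 0.0963. GINS4 and GINS3 share 21.2% and 10.9% of their exon bases with antisense genes. The remaining GINS subunits were GINS2 at -0.42 (limma adjusted p = 0.0606), with no overlap between the groups, and GINS1 at -0.11, and MCM10, which helps to start the helicase, was at -0.17.
A ratio within a library does not depend on how the library was scaled. The summed normalized counts of CDC45 and GINS1 to GINS4 came to 19.4, 16.9 and 17.5 per 100 of the summed MCM2-7 counts in shControl, and to 14.2, 14.1 and 14.2 in shRNF25. The knockdown ratios were nearly equal and lay below all control ratios. This ratio was chosen after its components had been seen and is a description.

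Of the 4 licensing genes, 2 fell (50%), beside 10.8% of all tested genes that were lower. CDT1, on chromosome 16 from 88803213 to 88809258, encodes the loader that brings MCM2-7 to origins and is destroyed once S phase begins. It lay at 1288, 1363 and 1238 in shControl and at 827, 1022 and 916 in shRNF25, a log2 fold change of -0.50 (limma SE 0.115 and adjusted p = 0.0157). CDC6, the ATPase that works with it, went from 1497, 1435 and 1331 to 933, 1148 and 1142, a log2 fold change of -0.41 (limma adjusted p = 0.0395). Both genes had no overlap between the groups, with shRNF25 replicate 1 the lowest library. The call of CDC6 was lost in 9 of 16 alternatives, with adjusted p-values from 0.0219 to 0.188 over all 16. CDT1 lost its call without shRNF25 replicate 1 or 3 and stayed between -0.57 and -0.42 with 1 library left out, as CDC6 did between -0.46 and -0.31. ORC1, the origin-binding ATPase, was at -0.37 (limma adjusted p = 0.0909) with no overlap, and ORC6 at -0.17.
DTL and CLSPN, which act on licensing and on the fork checkpoint, were not called. DTL encodes the adaptor that marks CDT1 for destruction, and lay at 2032, 1409 and 1257 in shControl and at 971, 1169 and 1149 in shRNF25. Control replicate 1 stood well above the other control libraries, no value overlapped, and the log2 fold change of -0.49 had an adjusted p of 0.0795 from limma. CLSPN, the mediator that helps ATR to activate CHK1, lay at 625, 514 and 423 and at 403, 483 and 476, with a log2 fold change of -0.18.

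Among the 7 polymerase and primase genes, PRIM1 and POLE2 fell (28.6%), beside 10.8% of all tested genes that were lower. PRIM1, on chromosome 12 from 56731596 to 56752373, encodes the catalytic subunit of primase, which lays the RNA primers. Its values were 385, 347 and 289 in shControl and 174, 221 and 249.7 in shRNF25, a log2 fold change of -0.67 (limma SE 0.173 and adjusted p = 0.0245). POLE2, the second subunit of the leading-strand polymerase, went from 773, 543 and 474 to 339, 379.6 and 394, a log2 fold change of -0.66 (limma SE 0.180 and adjusted p = 0.0303). Neither gene overlapped between the groups. With 1 library left out, PRIM1 stayed between -0.78 and -0.52 and POLE2 between -0.81 and -0.45, and their calls were lost in 3 and 4 of the 6 fits (limma adjusted p up to 0.116 and 0.131). PRIM1 shares 14.9% of its exon bases with AC117378.1, a gene model on the same strand. POLD3 at -0.40 (limma adjusted p = 0.0965) and POLE at -0.22 also had no overlap, and POLA1 was at -0.14, POLA2 at -0.13 and POLD1 at -0.02. POLA2 rests on the lowest counts and shares 54.1% of its 50-base words with AP000944.2 and other transcripts, so its value is uncertain.

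RFC5 stood apart from the other subunits of the clamp loader in its call. RFC5, on chromosome 12 from 118013588 to 118033130, went from 944, 969 and 849 in shControl to 487, 652 and 612 in shRNF25. The log2 fold change was -0.66 (limma SE 0.136 and adjusted p = 0.00877), with a clear gap between the groups. The other small subunits measured were RFC2 at -0.22, RFC3 at -0.11 and RFC4 at -0.26, with intervals that all contain 0. Their intervals reach down to -0.55, -0.39 and -0.59, so each overlaps the RFC5 interval of -0.97 to -0.36. The difference between the subunits was not tested. PCNA, the clamp, lay at 3932, 4756 and 3615 in shControl and at 3497, 3493 and 3995 in shRNF25, overlapping, at a log2 fold change of -0.16 (interval -0.44 to 0.13).
The genes of strand maturation and single-strand binding had the smallest differences of the 10 role groups, with a median of -0.05. RPA1, the large subunit of the single-strand binding protein, lay at 3259.9, 3579.8 and 2992 in shControl and at 2765, 2963 and 3183 in shRNF25, at -0.14 (interval -0.39 to 0.11). RPA2 was at 0.07 and RPA3 at -0.05. FEN1, the flap nuclease of Okazaki fragment processing, varied most in this group in the controls, at 1838, 3536 and 2708 against 2729, 2694 and 3012, and its log2 fold change of 0.11 turned to -0.14 without shControl replicate 1. LIG1, the ligase that seals the fragments, was at -0.08.

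In the chromatin group 0 of 4 genes passed the test, beside 10.8% of all tested genes that were lower and 10.5% that were higher. At an unadjusted p below 0.05 from limma, 3 of the 4 were lower, beside 18% of all tested genes. CHAF1A, the large subunit of the histone chaperone CAF-1, lay at 1405, 1496 and 1262 in shControl and at 989.5, 1213 and 1121 in shRNF25, with no overlap and a log2 fold change of -0.33 (limma adjusted p = 0.0851). SLBP, which binds histone mRNA, was at -0.38 (limma adjusted p = 0.0631) with no overlap, and CHAF1B at -0.44 (limma adjusted p = 0.103) with overlap. UHRF1, which guides DNA methylation to new strands, lay at 2999, 4291 and 3831 against 3179, 3592 and 3722, at -0.07.

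**Figure D3:**
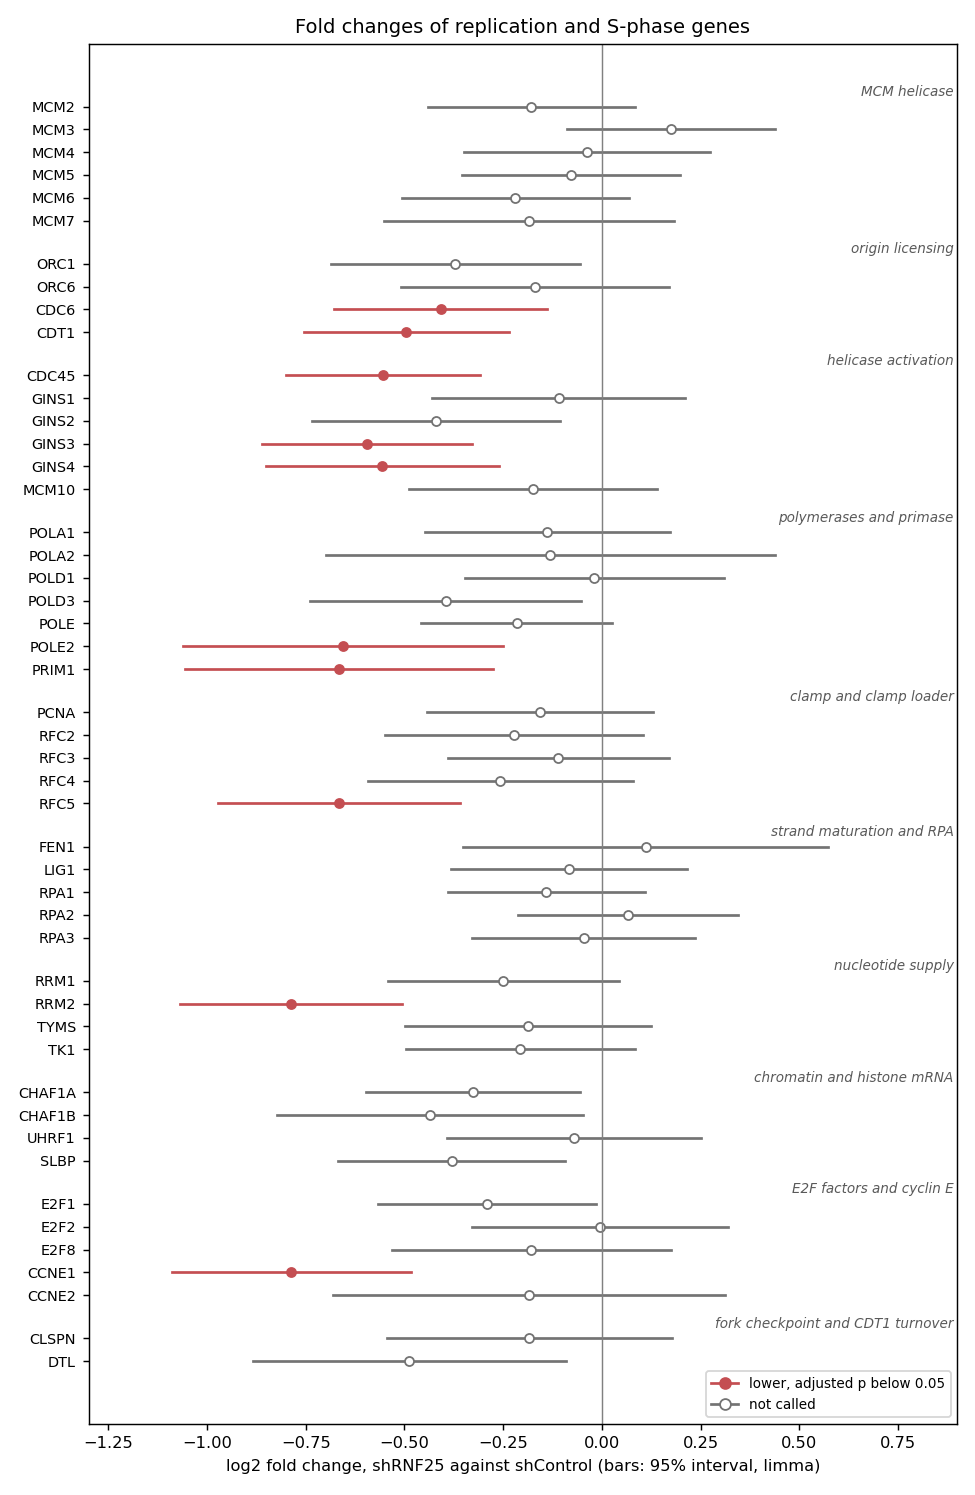
The log2 fold change of each replication gene, shRNF25 against shControl, with its 95% interval from limma. Filled red points mark the 10 genes with an adjusted p below 0.05, all to the left of 0, and open gray points mark the other 38, of which 3 (MCM3, FEN1 and RPA2) lie to the right of 0.

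Levels per kilobase of exon differed widely between the genes. In shControl, PCNA had the highest level at 2788 normalized counts per kilobase, followed by TK1 at 2212, RRM2 at 1489 and MCM7 at 1451, and the lowest were POLA2 at 30.8, E2F2 at 34.9 and CCNE2 at 59.9. In shRNF25, RRM2 was at 862 per kilobase, below MCM7 at 1254, MCM3 at 1199 and FEN1 at 1135. RRM1, its partner in ribonucleotide reductase, was at 724 in shControl and at 604 in shRNF25. The called genes thus included an abundant one, RRM2, and others near the lower end, such as GINS3 at 83.1 in shControl.

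Promoter sequence was examined because E2F sites near the start are the known common feature of S-phase genes. RefSeq promoters of GRCh38.p14, reaching from 250 bases before to 50 bases after the start, were matched for 40 of the 48 genes. GINS4, POLD3, E2F8, CCNE2, MCM4, MCM5, RPA2 and RPA3 had no entry. The core of the E2F site was searched on both strands, first as the word TTCCCGC, next as its relative TTCGCGC, further as the form TTGCCGC, and last as the form TTGGCGC, whose match can overlap that of the second word on the opposite strand. At least 1 of them was found in 31 of 40 promoters (77.5%), beside 20.3% of the promoters of all tested genes and 13.1% of all promoters. Among the genes that fell 6 of 9 held it, beside 25 of 31 of the other members. In the 250 bases before the start alone these counts were 2 of 9 and 20 of 31, and 55.0% of all members held the word beside 17.2% of all tested genes. The difference between called and other members was not tested. CCAAT, the word of the NF-Y factor, was found in 57.5% of the members' promoters and 36.6% of those of all tested genes. TTTGAA, a word of late cell cycle promoters, was found in 2.5% and 9.68%.
The 250 bases before the start are shown for 2 genes that fell and 2 that were not called, with the E2F words in capitals, to let the presence of the word be compared with the outcome.
RRM2 (chr2:10122489-10122738, plus strand): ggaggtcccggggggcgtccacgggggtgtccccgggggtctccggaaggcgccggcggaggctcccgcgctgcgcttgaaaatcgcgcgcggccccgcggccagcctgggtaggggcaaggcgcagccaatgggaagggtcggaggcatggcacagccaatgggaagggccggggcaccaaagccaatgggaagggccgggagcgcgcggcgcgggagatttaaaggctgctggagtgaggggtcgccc
CDT1 (chr16:88803539-88803788, plus strand): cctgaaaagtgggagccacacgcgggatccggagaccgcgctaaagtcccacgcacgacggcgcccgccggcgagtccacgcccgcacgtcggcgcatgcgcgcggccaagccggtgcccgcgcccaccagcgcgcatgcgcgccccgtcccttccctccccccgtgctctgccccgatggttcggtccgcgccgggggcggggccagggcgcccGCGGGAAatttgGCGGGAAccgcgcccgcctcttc
MCM3 (chr6:52284743-52284992, minus strand): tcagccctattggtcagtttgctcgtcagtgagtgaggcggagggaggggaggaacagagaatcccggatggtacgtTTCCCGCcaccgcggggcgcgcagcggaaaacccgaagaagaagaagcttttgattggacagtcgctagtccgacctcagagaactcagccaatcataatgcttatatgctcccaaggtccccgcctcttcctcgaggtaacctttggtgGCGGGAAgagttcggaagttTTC
PCNA (chr20:5126623-5126872, minus strand): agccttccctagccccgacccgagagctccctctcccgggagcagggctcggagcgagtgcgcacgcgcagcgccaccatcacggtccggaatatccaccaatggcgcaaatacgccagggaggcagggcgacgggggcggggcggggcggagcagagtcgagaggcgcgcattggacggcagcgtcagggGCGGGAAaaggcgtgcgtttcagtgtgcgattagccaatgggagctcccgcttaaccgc
CDT1 has 2 words, at -35 and -23 counted from the start, and PCNA has 1 at -59. MCM3 has 2 before the start and another that runs across it, of which the first letters close the sequence. RRM2, which with CCNE1 had the largest falls, holds none of the 4 words in this window. GENCODE 29 places the start of its gene further upstream. It does so, at differing distances, for every other called gene with an entry: CDC6, CDT1, CDC45, GINS3, POLE2, PRIM1, RFC5 and CCNE1. The counts of promoters with a word therefore depend on the start that was taken. The word was thus present in genes with and without a call.

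The members also varied together within each group. Of the knockdown libraries, shRNF25 replicate 1 was the lowest for 43 of the 48 genes (89.6%), where it was the lowest for 37.8% of all tested genes, and shRNF25 replicate 3 was the highest for 32. Among the controls, shControl replicate 3 was the lowest for 36 of 48 (75.0%, beside 31.8% of all tested genes). On the log2 scale, the median difference of the 48 genes from their control means was 0.02, 0.07 and -0.13 in the shControl libraries in order of replicate number. In the shRNF25 libraries it was -0.34, -0.19 and -0.15, so the lowest control library lay close to the highest knockdown library. The median coefficient of variation of the members was 12.9% in shControl and 8.64% in shRNF25, beside 18.2% and 6.70% over all tested genes. It was largest in the controls for CCNE2 (34.1%), POLA2 (33.0%) and FEN1 (31.5%).

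Lists of other genes of the pathway were compiled from general knowledge, with earlier results of these data known. They were read in the same fit. Of 117 genes in 8 lists, 116 were tested, 15 were lower (12.9%) and 6 were higher (5.17%), beside 10.8% and 10.5% of all tested genes. Of 26 further replication factors 2 fell, POLD2 and PRIM2, or 7.69%, beside 10.8% of all tested genes. With a fold change of at least 1.5 required, 0 of the 26 were lower, beside 7.1% of all tested genes. POLD2, the small subunit of polymerase delta, fell from 6478, 6543 and 5782 to 4080.3, 4675 and 4414 (log2 fold change -0.51, limma adjusted p = 0.00904), with no overlap. PRIM2, the partner of PRIM1 in primase, was at -0.48 (limma adjusted p = 0.0414). The median of the list was -0.22, and 24 of its 26 values were below 0.

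Nucleotide enzymes outside the 48 genes moved in both directions, with 1 of 12 lower (8.33%) and 3 higher (25%). Of all tested genes 10.8% were lower and 10.5% higher. DCK, the kinase that salvages deoxycytidine, fell from 799, 644 and 613 to 423, 434 and 431 (log2 fold change -0.66, limma adjusted p = 0.00702). TK2, the mitochondrial thymidine kinase, rose from 148, 195 and 222 to 325, 301 and 325 (log2 fold change 0.77, limma adjusted p = 0.0113). Neither gene overlapped between the groups. RRM2B, the p53-inducible small subunit of ribonucleotide reductase that works outside S phase, rose (0.49, adjusted p = 0.0241), as did DCTD, the dCMP deaminase (0.50, adjusted p = 0.0134, both from limma).

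The G1 regulators held the largest changes near the S-phase genes. Of 15 tested G1 cyclins, kinases and inhibitors, 3 fell (20%) and 2 rose (13.3%), beside 10.8% and 10.5% of all tested genes. CDKN1A, which encodes the CDK inhibitor p21, fell from 1529, 2145 and 2711 to 1046, 906 and 969 (log2 fold change -1.09, limma adjusted p = 0.00393). CDKN2C, which encodes the CDK4 and CDK6 inhibitor p18, rose from 386, 457 and 410.1 to 875, 1019.5 and 988 (log2 fold change 1.20, limma adjusted p = 0.000262). Neither gene overlapped between the groups, although CDKN1A varied in the controls. CDKN2B, which encodes p15 of the same inhibitor family, rose (0.99, limma adjusted p = 0.00132). The kinases CDK2, the partner of cyclin E, at -0.60 (adjusted p = 0.00494) and CDK6 at -0.76 (adjusted p = 0.00626, both from limma) fell. CCND1, the most abundant G1 cyclin here per kilobase, was at 0.08 (interval -0.14 to 0.30).
Of 15 other E2F, pocket protein and MuvB genes 3 fell (20%), MYBL2, LIN52 and E2F7, and 0 rose, beside 10.8% and 10.5% of all tested genes. MYBL2, a transcription factor that joins the MuvB complex in S phase, went from 8166, 7746 and 6882 to 3769.6, 4201 and 4136, with no overlap. Its log2 fold change of -0.91 (limma SE 0.108 and adjusted p = 0.00063) was larger than that of any of the 48 replication genes. E2F7, a repressor of the E2F family, was close to the threshold at -0.42 (limma adjusted p = 0.0499), and LIN52, a MuvB subunit, was at -0.64. RB1 at -0.35 and RBL1 at -0.35, pocket proteins that restrain E2F, were not called.

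**Figure D4:**
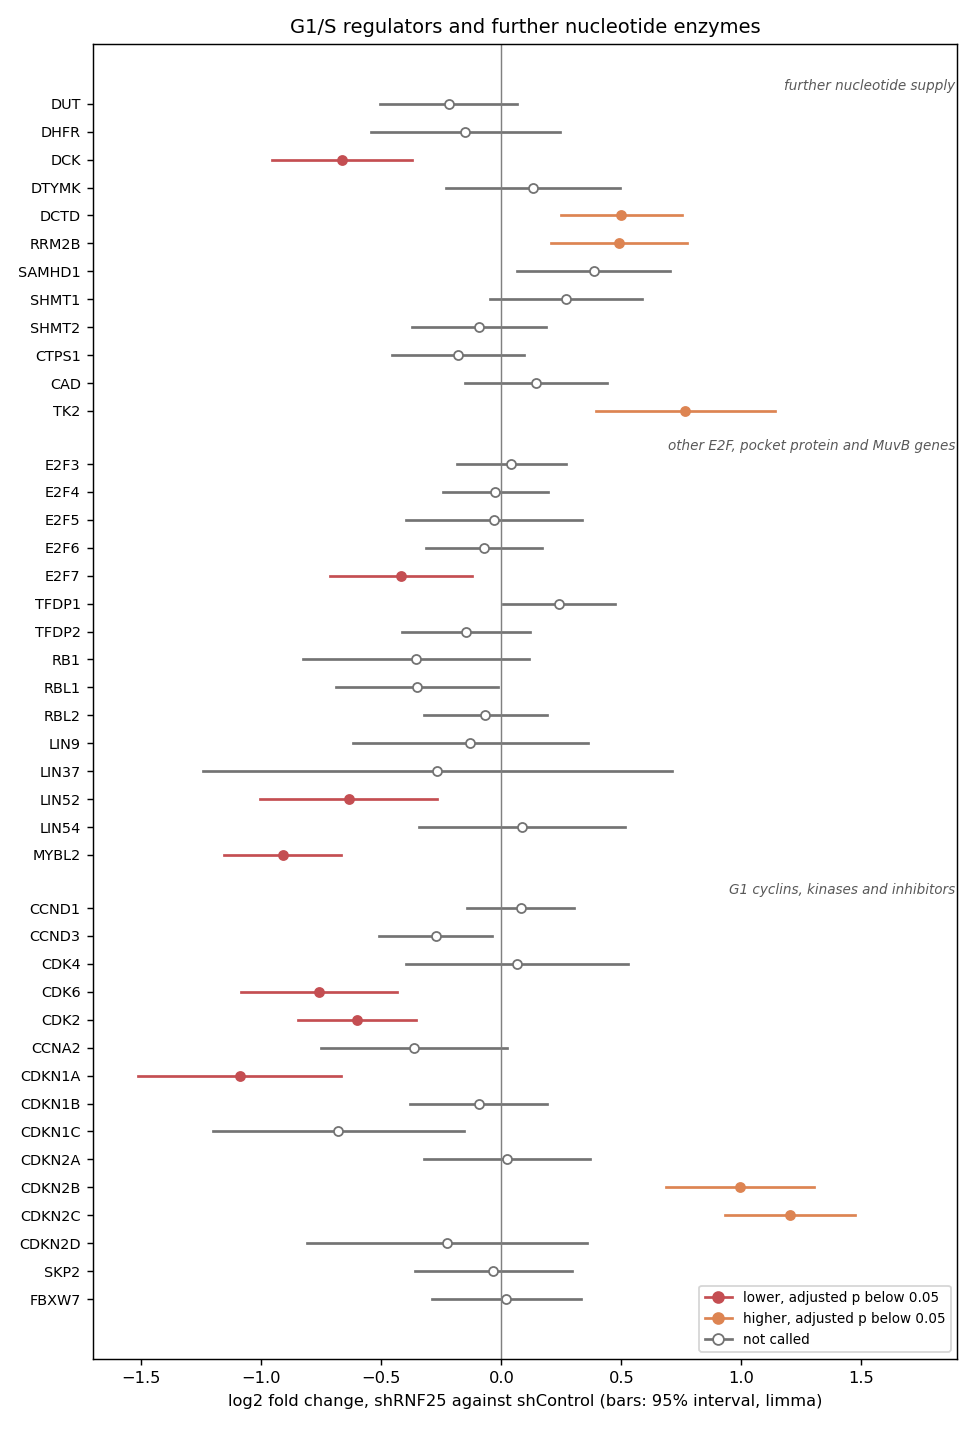
The log2 fold change of tested genes in 3 of the lists, shRNF25 against shControl, with 95% intervals from limma (red, lower; orange, higher; open gray, not called at an adjusted p of 0.05). CDKN2C and CDKN2B lie furthest to the right, and CDKN1A and MYBL2 furthest to the left.

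In the checkpoint list 8.33% of the genes were lower and 8.33% higher. In the chromatin list 12.5% were lower and 0 higher, and in the repair list 20% and 0. Of all tested genes 10.8% were lower and 10.5% higher. The log2 fold change was below 0 for 8 of 12 checkpoint genes, all 8 chromatin genes and all 10 repair genes. WEE1, the kinase that restrains CDK1 and CDK2, fell from 921, 828 and 849 to 531, 546 and 579 (log2 fold change -0.65, limma adjusted p = 0.00338). ATRIP, the partner of the ATR kinase, rose from 376, 457 and 416 to 539, 567 and 642 (log2 fold change 0.49, limma adjusted p = 0.0261). They were the 2 called genes of 12 in the checkpoint list, and neither overlapped between the groups. Of 8 genes of replication-coupled chromatin, ATAD2 fell from 6541, 4576 and 3692 to 2698, 3243 and 3108 (-0.67, limma adjusted p = 0.034). Of 10 S-phase repair factors, EXO1, a nuclease of mismatch repair, fell from 1349.8, 1125 and 901 to 629, 718 and 698 (-0.71, limma adjusted p = 0.0113), and MSH6, a mismatch sensor, was at -0.35 (limma adjusted p = 0.0475). These genes too had no overlap between the groups. ATAD2 lost its call in 5 of 16 alternatives and ATRIP in 3 (limma adjusted p up to 0.144 for each), with log2 fold changes of -0.86 to -0.45 and 0.41 to 0.55 when 1 library was left out. POLD2 and TK2 lost theirs in 2 each and EXO1 in 1.

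Mitosis and G2/M genes, the nearest part of the cell cycle program, were set beside the replication genes. Of 18 such genes 2 fell (11.1%), AURKB and UBE2C, and 0 rose, beside 10.8% and 10.5% of all tested genes. Among the replication genes 20.8% fell. Both mitotic falls were at least 1.5-fold, as were 6 of those among the 48 replication genes. At an unadjusted p below 0.05 from limma, 6 of the 18 mitotic genes were lower and 0 higher. At that threshold 18 of the 48 replication genes and 18% of all tested genes were lower. AURKB, the kinase of the chromosomal passenger complex, went from 1526, 1731 and 1321 to 794, 861 and 905 (log2 fold change -0.83, limma adjusted p = 0.00217), with no overlap. The median of the mitotic genes was -0.33, beside -0.20 for the replication genes, and 17 of 18 values were below 0. MKI67, the usual proliferation marker, was at 15324 in shControl replicate 1 but at 8206 and 7145 in the other controls, against 6330.0, 7944 and 7007 in shRNF25, a log2 fold change of -0.45 (limma adjusted p = 0.231). The difference between the lists was not tested.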

How the data were processed

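Total RNA of SW839 cells was depleted of ribosomal RNA before stranded libraries were made, per the study's methods. The submitters' processing notes name fastp, HISAT2, HTSeq and GRCh38. The deposited values are a signal, namely counts per gene divided by 1 factor per library by the authors, and dividing by the smallest step returned whole reads for 100% of values (tolerance 0.001 reads). Values were transformed as log2(normalized count + 1) and tested with limma 3.58.1 (trend, R 4.3.3) without covariates. The 16554 genes that reached 10 in 3 or more libraries were kept. The exact permutation test of a gene over 3 against 3 libraries cannot give a p below 0.1, the value of each gene without overlap. Scripts were tested on simulated data. Values in full were given for RNF25, for 2 genes per role (largest change among called genes, otherwise the highest level), and for the largest called rise and fall in each pathway list. CDC45 and other names were added after their values were seen. Members and lists were chosen with earlier results of these data known. Alternatives were pseudocounts of 5 and 0.5, other filters and scalings, edgeR 4.0.16 and DESeq2 1.42.0 on recovered reads, library weights, a replicate block, and each library left out. Positions and exon lengths come from GENCODE 29 by symbol. PAX2 was not analysed here.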

Additional observations from a re-analysis of the deposited data

How the results depend on the processing

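The count of 10 lower replication genes stayed between 9 and 13 under the pseudocounts, filters, scalings, edgeR (10), DESeq2 (13), library weights (11) and the replicate block (9), and was 6 with a fold change of at least 1.5 by construction. Leaving out 1 library gave 3 to 17 lower genes, with 3 and 5 without shRNF25 replicates 1 and 2, 6 without shControl replicate 2, and 17 without shControl replicate 1 or 3, while lower calls over all tested genes ranged from 860 to 2986 (1785 with all libraries). The count of higher genes was 0 under all 17 settings tried. The median of the members lay between -0.31 (without shControl replicate 3) and -0.13, and between -0.31 and -0.14 with 1 library left out. RNF25, RRM2, CCNE1, RFC5, MYBL2, CDKN1A and CDKN2C kept their call under all 16 alternatives. The share of promoters with an E2F word was 55.0% in the 250 bases before the start alone, beside 17.2% of all tested genes.
Uncalled genes near 0 changed sign. With quantile normalization MCM4 was 0.093, MCM5 0.025, POLD1 0.10, RPA3 0.012 and UHRF1 0.077. With rescaling on genes with a mean of 100 or more, E2F2 was 0.056, MCM4 0.025, POLD1 0.043 and RPA3 0.016. E2F2 was 0.033 with edgeR and 0.013 with DESeq2. Across the fits without 1 library, the range was for CCNE2 from -0.33 to 0.079, FEN1 from -0.14 to 0.33, MCM4 from -0.15 to 0.085, E2F2 from -0.071 to 0.10, LIG1 from -0.15 to 0.030, MCM7 from -0.34 to 0.0022, POLA2 from -0.43 to 0.074, POLD1 from -0.17 to 0.12, UHRF1 from -0.22 to 0.042, RPA2 from -0.019 to 0.16 and RPA3 from -0.11 to 0.043.
The replicate numbers of the titles pair the groups in name only. Deviations of same-numbered libraries correlated at -0.0638, -0.0874 and 0.0471 across genes, and shControl replicate 1 correlated best with shRNF25 replicate 2 (0.183). With the replicate block the call of CDC6 was lost and no other call among the 48 genes changed.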
